A study of Rattus norvegicus with 4 samples.

Results

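The imprinted Dlk1-Dio3 locus was examined in small RNA sequencing of serum exosomes (Exos) of rats, through every listed arm of miR-127, miR-379, miR-382, miR-409a, miR-410, miR-411, miR-434, miR-485, miR-495 and miR-541. The deposited table lists 243 miRNAs, and 5 of them are such arms: miR-127-3p, miR-379-5p, miR-382-5p, miR-434-3p and miR-541-5p. The other 5 miRNAs, miR-409a, miR-410, miR-411, miR-485 and miR-495, have no arm in the table, and no miRNA of the table is listed at 0 in all 4 libraries. The 4 libraries come from serum of the study's adult male SD rats, a laboratory strain. By the treatment label, 2 libraries are exercise (Exe, a treadmill programme) and 2 are sedentary (Sed, no programme). The titles may go against these labels, because the sedentary libraries carry titles that begin with E and the exercise libraries titles that begin with N. Groups here follow the treatment label, and with the opposite reading every direction between groups would be exchanged. The methods describe replicates in general as independent and biological, but the number of rats behind a library is not stated, so p-values measure only the spread between these libraries. The Exos were collected by ultracentrifugation of serum, which draws vesicles from many tissues, so fewer vesicles of a type and less of a miRNA per vesicle cannot be told apart.

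The Dlk1-Dio3 locus holds one of the largest groups of miRNA genes in mammals. Its paternal copy expresses protein genes such as Dlk1, Rtl1 and Dio3, and its maternal copy expresses long noncoding RNAs, Meg3 among them, together with the miRNAs. Many of the miRNAs lie close together and are thought to be cut from shared long transcripts, and they are best known from brain, embryo and placenta. miR-127 and miR-434 lie opposite Rtl1, and miR-127 is known to cut the Rtl1 transcript. miR-379 opens the large array that ends with miR-410, which is known in neurons for its control by the factor Mef2.

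The RefSeq gene table of assembly GRCr8 places 53 miRNA hairpins between Dlk1 and Dio3, with 100 mature miRNAs. The deposited table lists 11 of these 100, which is 11.0%, against 212 of 593 mature miRNAs that RefSeq places elsewhere (35.8%). RefSeq holds 222 of the 243 names of the deposited table, so these shares leave out the unmatched names, and 1 name of the table stands for a pair of RefSeq miRNAs. All 5 arms were matched. Counted from the Dlk1 end, miR-127 is hairpin 8, miR-434 is 10, miR-379 is 15, miR-382 is 40 and miR-541 is 46 of 53. The first and second of these lie within the span of Rtl1. The authors aligned to another assembly, mRatBN7.2, so no coordinates are given.

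The mature sequences of the 5 arms are shown because they tell the arms apart. They are RefSeq sequences (GRCr8), written from 5′ to 3′ with the seed, bases 2 to 8, in capitals, and each equals the sequence of the deposited table apart from U in place of T.
miR-127-3p: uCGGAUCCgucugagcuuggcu
miR-434-3p: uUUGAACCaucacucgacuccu
miR-379-5p: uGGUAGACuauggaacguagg
miR-382-5p: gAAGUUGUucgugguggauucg
miR-541-5p: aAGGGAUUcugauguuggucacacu
The seeds of the 5 arms all differ, and no other mature rat miRNA in RefSeq carries any of them. The closest other sequence of the table lay 8 edits from miR-379-5p, miR-382-5p and miR-434-3p, 9 edits from miR-127-3p and 10 edits from miR-541-5p. Near-identical copies that could exchange reads with the 5 arms were therefore not in the table.

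Values are RPM, that is, reads scaled to a fixed total for each library and not to length. Each value above 0 was a whole multiple of the smallest value in its library, which was taken as 1 read. By this step the totals ran from 20780612 to 22140315 reads, of which 649210 to 814439 lay on listed miRNAs. A count of 0 allows up to 3 reads, or 0.135 to 0.144 RPM. Intervals and floors cover counting error only, because the reads are not counted as molecules.

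miR-382-5p (rno-miR-382-5p) was found in a single library. Replicate 1 of the sedentary libraries held 292 reads (13.3 RPM, exact 95% Poisson interval 11.8 to 14.9), and the other sedentary library and both exercise libraries held 0 reads. In the library that held it, miR-382-5p ranked 75 of 151 miRNAs above 0, near the middle. Against a floor of 3 reads, its level there was at least 91.9-fold higher than in the other sedentary library. Against the exercise libraries the same bound was 97.2-fold and 97.9-fold. Each bound rests on 0 reads and on the depth of that library, so the bounds do not tell which gap was wider. The other library labelled sedentary was at 0 as the exercise libraries were, and without replicate 1 the miRNA was at 0 in both groups.

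miR-379-5p, the first miRNA of the large array, was the only one of the 5 arms above 0 in all 4 libraries, where 42.8% of the table's miRNAs were. The sedentary libraries held 28.3 and 9.14 RPM (624 and 190 reads), and the exercise libraries 11.5 and 8.99 RPM (253 and 199 reads). Replicate 1 of the sedentary libraries stood apart, 3.10-fold above the other sedentary library, and that other library lay between the exercise libraries, so the groups overlapped. The means were 18.7 ± 13.6 RPM (SD, n = 2) with the sedentary label and 10.3 ± 1.78 RPM (SD, n = 2) with the exercise label. By rank, miR-379-5p lay between 55 and 81 among the miRNAs above 0 in its library.

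miR-127-3p and miR-434-3p, which lie within the span of Rtl1, were above 0 in exercise libraries alone. miR-433-3p, a further miRNA of the table within that span, was above 0 in sedentary replicate 2 alone (42 reads). With miR-541-5p, 3 of the 5 arms had this pattern, as 22.6% of the table's miRNAs did, and miR-382-5p was the 1 arm above 0 in sedentary libraries alone (9.88% of the table). miR-434-3p held 25 and 40 reads (1.14 and 1.81 RPM) in the exercise libraries and 0 reads in both sedentary libraries. The groups did not overlap for miR-434-3p, as for 52.2% of the miRNAs above 0 in at least 2 libraries. It met that condition through the exercise libraries alone, which fixes the lack of overlap, so nothing is read from it. Its exercise mean of 1.47 ± 0.473 RPM (SD, n = 2) was at least 10.5-fold higher than the floor of the sedentary libraries. miR-127-3p, the arm known to act on Rtl1, held 65 reads (2.94 RPM, exact 95% Poisson interval 2.27 to 3.74) in replicate 2 of the exercise libraries and 0 reads in the other 3. Its replicates in the exercise group therefore differed, as those of miR-382-5p did in the sedentary group. Against the floor of each of these, its level was at least 20.3-fold higher. miR-541-5p had 1 read in all, in replicate 2 of the exercise libraries (0.0452 RPM, exact 95% Poisson interval 0.00114 to 0.252), which is under the floor of 3 reads. Nothing can be read from that count.

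**Figure D1:**
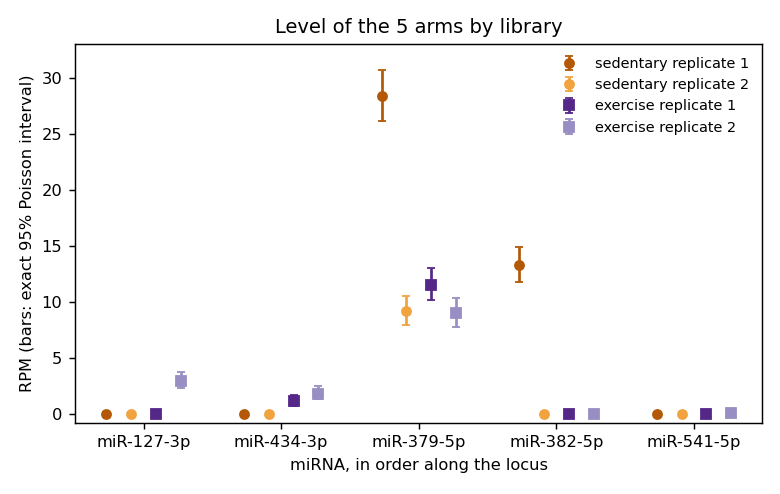
RPM of the 5 arms in each library, in order along the locus; circles are sedentary and squares exercise libraries, and bars are exact 95% Poisson intervals of the reads, or for 0 reads run up to the floor of 3 reads, which the markers hide. miR-379-5p is the arm above 0 in all 4 libraries, at 8.99 to 28.3 RPM, while miR-382-5p stands at 13.3 RPM in sedentary replicate 1 and at 0 elsewhere.

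By library, 2 of the 5 arms were above 0 in sedentary replicate 1, 1 in sedentary replicate 2, 2 in exercise replicate 1 and 4 in exercise replicate 2. The shares of all 243 miRNAs above 0 in these libraries were 62.1%, 62.6%, 73.7% and 78.6%, in the same order. The library with the most arms was the one with the most miRNAs of any kind, and the part of depth or of library make-up in the count was not tested. With more than 3 reads required, exercise replicate 2 had 3 arms and the other counts were as before. With at least 100 reads required, only sedentary replicate 1 held 2 arms, and each of the other libraries held 1, miR-379-5p.

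The cluster mates did not share the pattern of miR-382-5p. Of the 4 other arms, 0 were above 0 in sedentary replicate 1 alone, where 4.53% of the table's miRNAs, miR-382-5p included, had that pattern. Only miR-379-5p was above 0 in the library that held miR-382-5p, and miR-127-3p, miR-434-3p and miR-541-5p were at 0 there. miR-379-5p had its highest level in that library too, as 18.1% of all miRNAs did, but it stayed above 0 in the other 3. The ratio of these 2 miRNAs within a library does not depend on the scaling. In sedentary replicate 1 there were 0.468 reads of miR-382-5p per read of miR-379-5p. This value rests on 1 library, so no spread between replicates goes with it. At that ratio, sedentary replicate 2 would have held 88.9 reads of miR-382-5p, exercise replicate 1 118 reads and exercise replicate 2 93.1 reads, and each held 0. The floor of 3 reads puts the ratio in these libraries at no more than 0.0158, 0.0119 and 0.0151, in the same order. Neither did miR-434-3p keep a constant ratio to miR-379-5p, with 0.0988 and 0.201 in the exercise libraries and 0 in both sedentary libraries.

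Detection in one library was common in the table. Of the 243 miRNAs, 65 (26.7%) were above 0 in a single library, and their reads there had a median of 36. Among these 65, miR-382-5p had the most reads, ahead of miR-6319 with 141 reads in sedentary replicate 2. miR-127-3p ranked 14 and miR-541-5p 56 by reads. In sedentary replicate 1, 11 miRNAs were above 0 in that library alone, miR-382-5p among them. Ordered by closeness to its 292 reads, the 5 nearest were miR-671 (125 reads), miR-18a-3p (90 reads), miR-881-3p (87 reads), miR-425-3p (77 reads) and miR-1224 (41 reads). The absolute log2 ratio to miR-382-5p ran from 1.22 for miR-671 to 2.83 for miR-1224. None of these 5 lies between Dlk1 and Dio3 in GRCr8. Over the whole table, 30 miRNAs (12.3%) had at least 20 reads in sedentary replicate 1 and 0 in replicate 2, and 29 (11.9%) had the opposite.

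**Figure D2:**
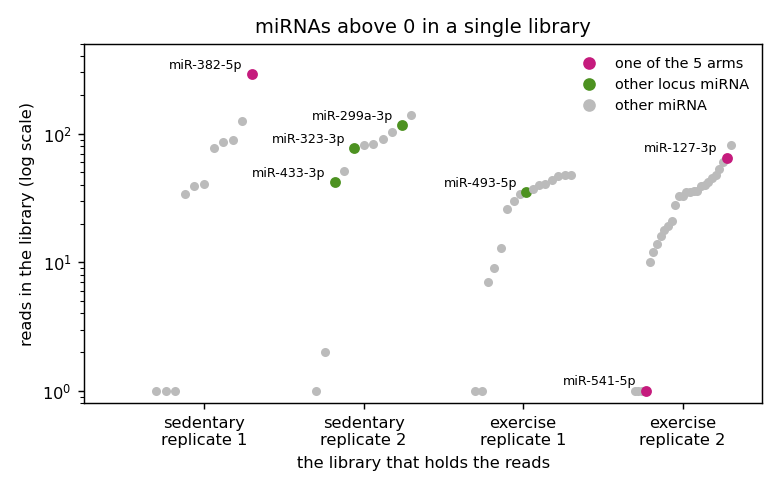
Reads (log scale) of the 65 miRNAs above 0 in a single library, placed by the library that holds them; each point is a miRNA, with the 5 arms and the other locus miRNAs coloured and named. miR-382-5p, at 292 reads in sedentary replicate 1, is the highest point, and miR-127-3p lies at 65 reads in exercise replicate 2.

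A further 6 miRNAs between Dlk1 and Dio3 were in the table, taken from a list of the locus: miR-134-5p, miR-299a-3p, miR-323-3p, miR-409b, miR-433-3p and miR-493-5p. miR-134, which is known for restraining dendritic spine growth in neurons, has the hairpin next to that of miR-382. miR-134-5p held 0 and 22 reads in the sedentary libraries and 17 and 0 reads in the exercise libraries, so the nearest neighbour of miR-382-5p was at 0 in the library that held miR-382-5p. miR-299a-3p (117 reads), miR-323-3p (77 reads) and miR-433-3p (42 reads) were above 0 in sedentary replicate 2 alone. miR-493-5p (35 reads) was above 0 in exercise replicate 1 alone. These 4 miRNAs and miR-382-5p thus lay in 3 different libraries.

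Over the 11 locus miRNAs, 7 were above 0 in a single library, 2 in 2 libraries, 1 in 3 and 1 in all 4. They were spread over the libraries as 3 and 6 in the sedentary replicates 1 and 2, and 4 and 5 in the exercise replicates 1 and 2. miRNAs above 0 in sedentary libraries alone numbered 4, and those above 0 in exercise libraries alone also 4, where 9.88% and 22.6% of the table had these patterns. The highest level was in sedentary replicate 1 for 3, in sedentary replicate 2 for 4, in exercise replicate 1 for 1 and in exercise replicate 2 for 3. Of all miRNAs 18.1%, 26.3%, 27.6% and 28% had their highest level there, in the same order.

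**Figure D3:**
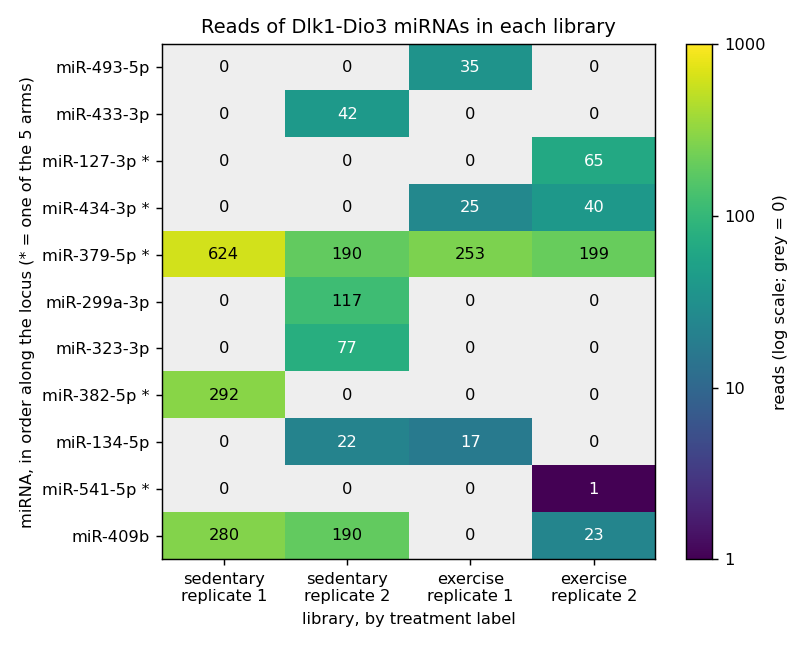
Reads of the 11 Dlk1-Dio3 miRNAs of the table in each library, in order along the locus from the Dlk1 end; colour is on a log scale, grey is 0, and asterisks mark the 5 arms. The row of miR-379-5p is filled throughout, and 7 rows hold reads in 1 library only.

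The deposited table puts miR-382-5p, miR-323-3p and miR-409b in 1 family, mir-154, although their seeds differ. miR-323-3p was found in sedentary replicate 2 and not where miR-382-5p was. miR-409b held 280 and 190 reads in the sedentary libraries (12.7 and 9.14 RPM) and 0 and 23 reads in the exercise libraries (0 and 1.04 RPM). The groups did not overlap for miR-409b, which is what 52.2% of the miRNAs above 0 in at least 2 libraries showed, and both sedentary libraries held it. In sedentary replicate 1 its level was close to that of miR-382-5p, and in sedentary replicate 2 it equalled that of miR-379-5p at 190 reads, while miR-382-5p was at 0.

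The hairpin of miR-409b lies on the strand opposite that of miR-409a, and the 2 sequences are shown because 1 is contained in the complement of the other. Capitals mark the bases that pair.
miR-409b: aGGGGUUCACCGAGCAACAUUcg
miR-409a-3p: AAUGUUGCUCGGUGAACCCC
All 20 bases of miR-409a-3p are the reverse complement of bases 2 to 21 of miR-409b. Whether the authors counted reads by strand is not stated, so reads of miR-409a-3p and miR-409b cannot be told apart in these values. No arm of miR-409a is in the table.

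The groups were compared with limma on log2(RPM + 1) over the 178 miRNAs above 0 in at least 2 libraries. This filter left 2 of the 5 arms, miR-379-5p and miR-434-3p, and 2 of the 6 other locus miRNAs, miR-134-5p and miR-409b. miR-434-3p passed the filter only through the group where it is high, so its difference and p below are a description and not support for a change. A miRNA was called where its adjusted p was under 0.05 and its log2 fold change lay outside -1 to 1, which 7.87% of the 178 miRNAs met. Among the arms 0 of 2 were called, and 1 of 2, miR-434-3p, passed at an unadjusted p under 0.05 with the same fold threshold, as 21.9% of the 178 did. For miR-434-3p the difference, exercise minus sedentary, was 1.29 ± 0.47 (standard error) on the log2 scale, with a limma adjusted p of 0.14. For miR-379-5p it was -0.63 ± 0.69 (standard error), with a limma adjusted p of 0.60, and without sedentary replicate 1 it turned to 0.14. The values of miR-434-3p, at 0 reads in both sedentary libraries, rest on 25 and 40 reads and understate the ratio of the levels, since low values are held back by the added 1.

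Among the other locus miRNAs 0 of 2 were called by limma, and 1 of 2, miR-409b, passed at an unadjusted p. Its difference was -3.05 ± 0.89 (standard error) on the log2 scale, with a limma adjusted p of 0.097. With a library at 0, the difference depends on the added value, at -5.01 with 0.1 and -0.99 with 10 in place of 1 (limma adjusted p = 0.15 and 0.073). Without sedentary replicate 1 or sedentary replicate 2 it was called (adjusted p = 0.011 and 0.0019 from limma), in fits that called 17.9% and 23.2% of all miRNAs tested, and without exercise replicate 1, where 0 of 161 miRNAs were called, it was not (0.54). Without exercise replicate 2, where 7 of 155 miRNAs were called, it was not called either (-3.56, adjusted p = 0.31 from limma). The difference for miR-134-5p was -0.11 ± 0.56 (standard error), with a limma adjusted p of 0.89. miR-382-5p, miR-127-3p and miR-541-5p were not tested under the filter. Without the filter limma gave miR-382-5p and miR-127-3p an adjusted p of 0.46 each and miR-541-5p one of 0.90. For a single miRNA, 2 libraries against 2 allow no exact two-sided permutation p below 0.33.

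The summed reads of the 5 arms took 0.121% of the reads on listed miRNAs in sedentary replicate 1 (916 of 754341 reads, 95% Wilson interval 0.114% to 0.130%). In sedentary replicate 2 the share was 0.0233% (190 reads, 0.0202% to 0.0269%). The exercise libraries held 0.0401% (278 reads, 0.0357% to 0.0451%) and 0.0470% (305 reads, 0.0420% to 0.0526%). The sedentary libraries thus held the highest and the lowest share, with both exercise libraries between them. The means were 0.0724% ± 0.0694 (SD, n = 2) with the sedentary label and 0.0435% ± 0.00486 (SD, n = 2) with the exercise label. The log2 ratio of the means, exercise over sedentary, was -0.73, and 0.90 without sedentary replicate 1, so that library set its direction. In sedentary replicate 2 all reads of the arms were of miR-379-5p, and the other 4 arms held 0 of 814439 reads there.

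**Figure D4:**
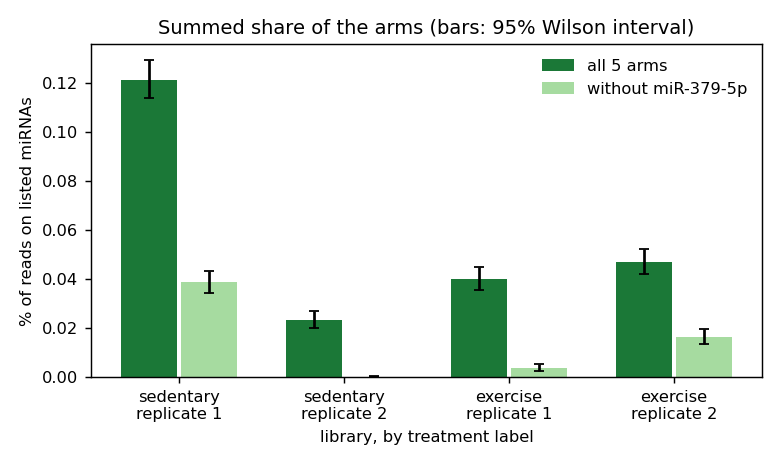
Summed reads of the 5 arms, and of the 4 arms without miR-379-5p, as a percentage of the reads on all listed miRNAs in each library; bars start at 0 and error bars are 95% Wilson intervals. Sedentary replicate 1 has the highest share, 0.121%, and sedentary replicate 2 the lowest, 0.0233%.

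Markers of other sources were measured in the same libraries. The red cell miRNAs (miR-486, miR-451, miR-16 and miR-144) summed to 8768 and 11317 RPM in the sedentary libraries and to 4806 to 5774 RPM in the exercise libraries. miR-486 made up nearly all of these sums. miR-451-5p overlapped between groups (14.7 and 148 RPM against 54.0 and 70.4 RPM), and miR-16-5p went the other way (0 and 1.97 RPM against 8.42 and 8.67 RPM). The liver miRNA miR-122-5p held 1394 and 1469 RPM against 696 to 732 RPM. Platelet and white cell miRNAs summed to 121 to 133 RPM against 213 to 231 RPM. miR-150-5p carried that difference (41.6 and 56.9 RPM against 149 and 129 RPM), while miR-126a-3p overlapped between groups and miR-223-5p went the other way (14.8 and 7.84 RPM against 6.14 and 3.88 RPM). Of 5 brain miRNAs listed, miR-124 and miR-138 were not in the table, and the others summed to 32.9 to 43.6 RPM in the sedentary and 53.1 to 66.7 RPM in the exercise libraries. miR-128-3p carried that difference (39.6 and 28.8 RPM against 49.0 and 62.8 RPM), while miR-9a-5p and miR-129-5p overlapped between groups. The part of these sources in the levels of the Dlk1-Dio3 miRNAs was not tested.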

How the data were processed

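The 4 libraries hold small RNA of rat serum Exos and were grouped by treatment label. According to the methods and the submitters' processing notes, the authors trimmed reads with cutadapt, aligned them to mRatBN7.2 with Bowtie, counted them with featureCounts on miRBase and deposited 1 value per miRNA and library, named TPM. The deposited values are RPM of a read total larger than the reads on listed miRNAs. The lowest value in a library was taken as 1 read (tolerance 0.01 of a read). Reads so obtained served for depth, floors, detection limits, read ratios, the Poisson and Wilson intervals and the chi-square test between libraries of a group. They were not used in count models to compare the groups, since too few low values were present to recover counts formally. The intervals and the chi-square test therefore hold only if the lowest value is 1 read. The members and lists were chosen with earlier results of these data known.

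On the log2(RPM + 1) scale, groups were compared with limma 3.58.1 (R 4.3.3). miRNAs had to be above 0 in at least 2 libraries, and the fit used a variance prior that follows the mean and Benjamini-Hochberg adjustment over all miRNAs tested. The fit was also run on simulated data. Their spread between replicates was set and not taken from these libraries, so that run does not tell how the fit performs here. Python 3.11.15 and matplotlib 3.10.9 made the tables and figures. Named were all arms of the 10 miRNAs, the other locus miRNAs, and the 5 miRNAs above 0 in the same library as miR-382-5p alone with the closest reads. Reads of libraries of a group differed by more than read-counting noise (chi-square test), so each library was counted as 1 sample, which does not tell separate animals from technical repeats. Same-numbered libraries did not deviate together (correlation -0.15), so the numbers were not taken as pairs. Alternatives changed the pseudocount, filter, scaling, variance prior, block, detection limit and denominator, or left out a library.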

Additional observations from a re-analysis of the deposited data

How the results depend on the processing

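Of the 2 arms tested, 0 were called by limma with pseudocounts of 0.1 and 10, with median-of-ratios scaling, with a single variance prior or with 1 library left out, where 1 or 2 arms could be tested. Of all miRNAs 0 of 178 were called with the single variance prior and 0 of 161 without exercise replicate 1, so a count of 0 there says nothing about the arms. The count was also 0 of 5 without the filter on low values, where 1.23% of 243 miRNAs were called, and 0 of 1 with a mean of at least 10, where 22% of 82 were. The first share is low enough that 0 of 5 says little about the arms. Over all miRNAs, 6.74% were called with pseudocount 0.1, 5.62% with pseudocount 10 and 7.87% with median-of-ratios scaling. At these shares 0 of 2 says little about the arms either. At an unadjusted p under 0.05 the count of arms was 1. With the replicate block 0 arms and 0 other locus miRNAs were called, and the same held for the crossed block, which was chosen after seeing the data because same-numbered libraries had a correlation of -0.15. The block changed no call among the locus miRNAs tested, while over all miRNAs 18 were called with either block against 14 without. Of the other locus miRNAs 0 were called under these settings, apart from 1 at an unadjusted p and 0 to 1 with 1 library left out; with a mean of at least 10 none could be tested. With 1 library left out, the lone library of a group is assumed to vary like the other group. The log2 fold change of miR-379-5p ran from -1.39 to 0.14 with 1 library left out, the latter without sedentary replicate 1, and ranged from -0.72 to -0.42 over the settings with all libraries. That of miR-134-5p, -0.11, was -0.63 without sedentary replicate 1 and turned to 0.31 without exercise replicate 2. That of miR-434-3p ranged from 0.20 with pseudocount 10 to 3.94 with pseudocount 0.1, and without exercise replicate 1 or exercise replicate 2 it could not be tested. With at least 100 reads required, the arms detected fell to 1 in exercise replicate 1 and to 1 in exercise replicate 2. The log2 ratio of the summed share was -0.94 relative to the full read totals, -0.96 without miR-379-5p, -0.90 without miR-486 in the denominator, and -1.48 to 0.90 with 1 library left out. Without miR-379-5p, the sedentary side held only the 292 reads of miR-382-5p in sedentary replicate 1, so that value rests on 1 library there. The cause of the changes across settings was not tested. Precision is limited by the low reads of the arms, under 100 in 4 of the 9 values above 0. It is also limited by the 2 libraries per group, whose reads differed by more than read-counting noise.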
